A study of Mus musculus with 4 samples.

Results

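The rows described here are the variable segments of the T cell receptor, chosen by name: every gene whose symbol starts with Trav (alpha chain) or Trbv (beta chain). They are 163 of the 32285 genes counted, 35 Trbv and 128 Trav, and all 163 were found in the GENCODE M21 annotation of GRCm38. The cells were live T cells sorted from draining lymph nodes of mice carrying tumours of MC38-OVA, a colon carcinoma line that makes ovalbumin, and were sequenced as 4 single-cell libraries with a 5′ kit. WT-CTRL had the genotype label Control and the treatment label Control. WT-DOX had the genotype label Control and received doxorubicin, an anthracycline chemotherapy. KO-CTRL and KO-DOX came from mice with PD-L1 knocked out, in dendritic cells according to the series text, without and with doxorubicin. There was 1 library per group, and mouse strain, age, the driver of the knockout and the number of mice pooled were not given in the sources used here. No test between genotypes or treatments is given. Classes of cells from the same library were compared instead, with the 4 libraries as pairs, and those p-values measure the spread between these 4 libraries only.

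Each T cell assembles its receptor by joining 1 variable segment to downstream segments at the alpha and the beta locus, and the joined segment is part of the receptor it carries. Transcripts of other segments were also seen: 31.1 to 34.4% of CD8 cells and 30.5 to 34.6% of CD4 cells per library had UMIs of 2 or more Trbv segments. The variable segments of both chains contribute the loops that touch MHC molecules, and CD8 cells read peptides on MHC class I whereas CD4 cells read them on MHC class II. In the mouse the Trav locus holds tandem copies, whose names carry the letter d or n, and some Trav segments, marked dv, can also be joined to the delta chain of gamma-delta T cells.

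The gates were set on UMIs, the tags that count individual transcripts. CD8 cells had at least 2 UMIs of Cd8a and Cd8b1 together and no Cd4, and numbered 4115 to 5121 per library. CD4 cells had at least 1 Cd4 UMI and none of Cd8a, Cd8b1 or Foxp3, and numbered 1703 to 2336. Cells with at least 1 UMI of Foxp3, the transcription factor of regulatory T cells, numbered 211 to 282, of which 9 to 20 per library also met the CD8 gate. CD8 cells with at least 1 UMI of Ccl5, a chemokine of effector and memory CD8 cells, numbered 369 to 479. Median depth was 3528 to 3605 UMIs per CD8 cell, 2937 to 3139 per CD4 cell, 4185 to 4614 per Foxp3-positive cell and 4413 to 4688 per Ccl5-positive CD8 cell. The 4 B cell markers summed to 14.2 to 15.8 CPM (counts scaled to the UMI total of the class) in CD8 cells and 2.60 to 6.87 in CD4 cells, and the 5 dendritic or myeloid markers to 77.1 to 95.6 and 62.6 to 97.7. The 4 regulatory T cell markers (Foxp3, Il2ra, Ikzf2 and Ctla4) summed to 2181 to 2533 CPM in Foxp3-positive cells and 320.0 to 480.8 in CD4 cells. Foxp3 itself sets both gates, so part of this difference was fixed by them. Pairs of libraries shared 175 to 271 cell barcodes, and where both cells of a shared barcode had a leading Trbv segment it was the same one in 0 to 10.1% of cases, against 6.61 to 6.68% for any pair of cells from the same libraries.

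A Trbv UMI was found in most gated T cells and a Trav UMI in fewer. The share of cells with any Trbv UMI was 88.1 to 89.5% in CD8 cells and 83.7 to 86.2% in CD4 cells. The share with any Trav UMI was 64.5 to 67.1% in CD8 cells and 69.3 to 71.3% in CD4 cells. Among B cells, which do not rearrange these loci, 10 of 179 had a Trbv UMI (5.59%, exact Clopper-Pearson 95% interval 2.71 to 10.03) and 4 had a Trav UMI (2.23%, 0.612 to 5.62), at median depths of 2165 to 2540 UMIs. These B cell shares give the background of UMIs in cells that should lack them, and intervals here cover counting error only. CD4 cells carried more Trav UMIs than CD8 cells, on average 2.50 to 2.68 against 1.88 to 1.98 per cell, with no overlap between the classes. When each cell was thinned to 1500 UMIs, leaving out 67 to 142 shallower CD8 cells and 80 to 122 shallower CD4 cells per library, a Trav UMI remained in 42.2 to 44.4% of CD8 cells and in 53.0 to 56.7% of CD4 cells. The Trav shares did not overlap at equal depth, whereas those of Trbv did, at 76.3 to 77.6% and 75.8 to 78.9%.

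Many segments were listed at or near 0. Over all 4 libraries 25 members had no UMI, 10 Trbv and 15 Trav, and 70 had under 50. Of the Trbv segments annotated as functional genes, Trbv4 (chr6:41059394-41059886) and Trbv5 (chr6:41062332-41062803; both GRCm38, plus strand) were listed at 0 in every library. Both lie inside the long non-coding gene 5830405F06Rik on the same strand, which had 159 to 253 UMIs in CD8 cells and 47 to 109 in CD4 cells per library. Whether the counting assigned or dropped reads of the overlap was not tested. The other 20 functional Trbv genes all had at least 50 UMIs. The median of the 22 functional Trbv genes was 11265 UMIs, and 12 of the 13 Trbv pseudogenes stayed under 50. The exception was Trbv24, with 1038 UMIs.

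In the alpha locus most segments with few UMIs had near-identical copies. Of 34 functional Trav genes whose variable exon is identical to that of another segment, 32 had under 50 UMIs and the median was 3. Of the 74 without an identical exon, 9 had under 50 UMIs and the median was 751. The same split appeared when 60-base windows were compared: 37 of 41 segments sharing at least 90% of windows with another had under 50 UMIs, against 4 of 67 sharing less. Values for single Trav copies are therefore uncertain where copies share sequence, and families were also tested as sums. Levels of different segments are not compared with each other below, only the same segment between classes or libraries, and shares of cells.

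**Figure D1:**
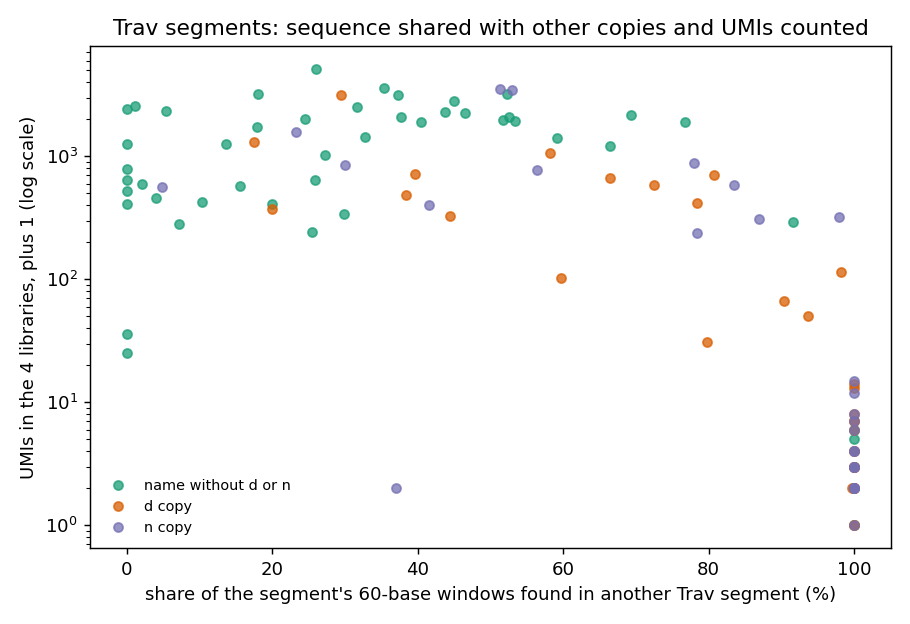
Functional Trav segments, with the share of their 60-base windows that occur in another Trav segment (horizontal, percent) and their UMIs in the 4 libraries plus 1 (vertical, log scale). Each point is 1 segment, coloured by copy. Of the segments sharing at least 90%, 37 of 41 lie under 50 UMIs.

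CD8 and CD4 cells used the beta segments in different proportions, and the same ones in each of the 4 libraries. Trbv12-1, Trbv29, Trbv14 and Trbv17 were higher in CD8 cells, whereas Trbv31, Trbv2, Trbv3 and Trbv23 were higher in CD4 cells. Across all genes 11900 passed the filter on low counts and 44.9% of them passed an adjusted p of 0.05 in edgeR's quasi-likelihood test, 22.4% higher and 22.5% lower in CD8 cells. Of the 163 members 88 passed that filter and 58 were called, against that background. The 20 Trbv segments tested gave 9 higher and 8 lower, with a median log2 fold of -0.14 against 0.01 over all genes. The ends of the variable exons of 6 of these segments are shown to identify them, each running 5′ to 3′ into the recombination site, with the codon of the conserved cysteine that opens the hypervariable CDR3 loop in capitals (GRCm38, sequences from GENCODE M21). The first 3 segments were higher in CD8 cells and the other 3 lower.
Trbv12-1: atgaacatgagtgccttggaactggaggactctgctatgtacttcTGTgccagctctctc
Trbv29: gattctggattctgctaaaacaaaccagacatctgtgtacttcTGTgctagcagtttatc
Trbv14: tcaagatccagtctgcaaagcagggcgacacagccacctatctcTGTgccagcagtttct
Trbv31: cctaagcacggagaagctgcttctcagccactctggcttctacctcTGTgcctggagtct
Trbv3: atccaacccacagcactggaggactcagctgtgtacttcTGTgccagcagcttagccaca
Trbv2: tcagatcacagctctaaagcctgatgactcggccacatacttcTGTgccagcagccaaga
These ends lie at chr6:41114008-41114067, chr6:41271822-41271881 and chr6:41135557-41135616 on the plus strand, at chr6:41557693-41557752 on the minus strand for Trbv31, and at chr6:41048769-41048828 and chr6:41047936-41047995 on the plus strand. All 6 are exonic coding sequence of the segment itself.

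Trbv12-1, the beta segment of the ovalbumin-specific OT-I receptor, was found in 10.7, 10.7, 10.5 and 9.61% of CD8 cells with any Trbv UMI, in the order WT-CTRL, WT-DOX, KO-CTRL, KO-DOX used throughout. In CD4 cells the shares were 3.72, 3.16, 3.53 and 3.58%. All 4 CD8 values lay above all 4 CD4 values. In UMIs the segment stood at 85.4 ± 7.97 CPM in CD8 cells and 22.7 ± 5.64 in CD4 cells (SD, n = 4 libraries). The fitted log2 fold was 2.08 ± 0.10 (SE, adjusted p = 2.06e-10, higher in 4 of 4 libraries), which is 4.22-fold. Fitted folds use TMM scaling, so they differ slightly from ratios of CPM.

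Trbv29 was found in 8.57, 8.89, 9.20 and 8.77% of CD8 cells and in 3.16, 3.64, 3.13 and 2.48% of CD4 cells, in the same order of libraries. The classes did not overlap, and the log2 fold in UMIs was 1.51 ± 0.09 (adjusted p = 2.06e-09). Trbv14 was found in 4.74 to 5.41% of CD8 and 1.92 to 2.48% of CD4 cells, with a log2 fold of 1.38 ± 0.09. Trbv17 was found in 3.53 to 3.93% and 1.34 to 1.79%, with a log2 fold of 1.21 ± 0.09. Smaller rises were called for Trbv12-2 (0.60) and Trbv16 (0.42), of which only Trbv16 overlapped between the classes in CPM.

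Trbv31 went the other way. This segment is the only one of the beta locus that lies beyond the constant regions in inverted orientation, so it joins by inversion. It was found in 5.15, 5.35, 5.17 and 5.38% of CD8 cells and in 12.4, 14.4, 12.5 and 12.4% of CD4 cells. The 4 CD4 values all exceeded the 4 CD8 values, and the CPM were 39.8 ± 3.16 and 142 ± 31.0 (SD, n = 4). Its log2 fold was -1.65 ± 0.08 (adjusted p = 2.32e-10, lower in CD8 cells in 4 of 4 libraries). Trbv3 was found in 8.23 to 9.45% of CD8 and 12.99 to 13.4% of CD4 cells (log2 fold -1.05 ± 0.04), and Trbv2 in 3.75 to 4.18% and 7.37 to 8.72% (-1.13 ± 0.09). Trbv23, at 0.781 to 1.03% and 1.24 to 2.20%, had a log2 fold of -1.30 ± 0.19 and missed the threshold in stricter gates (adjusted p = 0.0569). The next in size were Trbv1, at the far upstream end of the locus, with -0.86 and Trbv20 with -0.76. Scaling each class to its total of Trbv UMIs left the counts at 9 higher and 8 lower.

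The 2 segments found in most cells were Trbv12-2 and Trbv13-2, and here the share of cells with a UMI and the share led by the segment differed. A cell's leading segment is the one with most of its UMIs at that locus, at least 2 and without a tie. Trbv12-2 was found in 22.2 to 24.98% of CD8 cells and 19.1 to 21.1% of CD4 cells. Of cells with a leading segment it led 6.93, 6.44, 7.08 and 6.64% of CD8 cells, and 1.61, 1.89, 2.16 and 1.63% of CD4 cells. The mean leading share was 3.72-fold higher in CD8 cells than in CD4 cells, and that of cells with any UMI stood at 23.3 and 20.01%. By leading share Trbv12-1 stood at 7.73 ± 0.61% of CD8 and 1.30 ± 0.18% of CD4 cells (SD, n = 4), which is 5.94-fold. Both Trbv12 segments led a larger share of CD8 than of CD4 cells in every library. The variable exons of Trbv12-1 and Trbv12-2 are identical at 89.1% of aligned bases. Trbv13-2 was found in 20.1 to 22.2% of CD8 and 23.2 to 24.9% of CD4 cells, led 8.86 ± 0.27% and 12.0 ± 0.90%, and had a log2 fold of -0.40 in UMIs. The called rises of Trbv13-1, Trbv13-3 and Trbv15 were smaller than those given above, and Trbv26 fell. Trbv19, Trbv24 and Trbv30 did not pass the threshold.

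**Figure D2:**
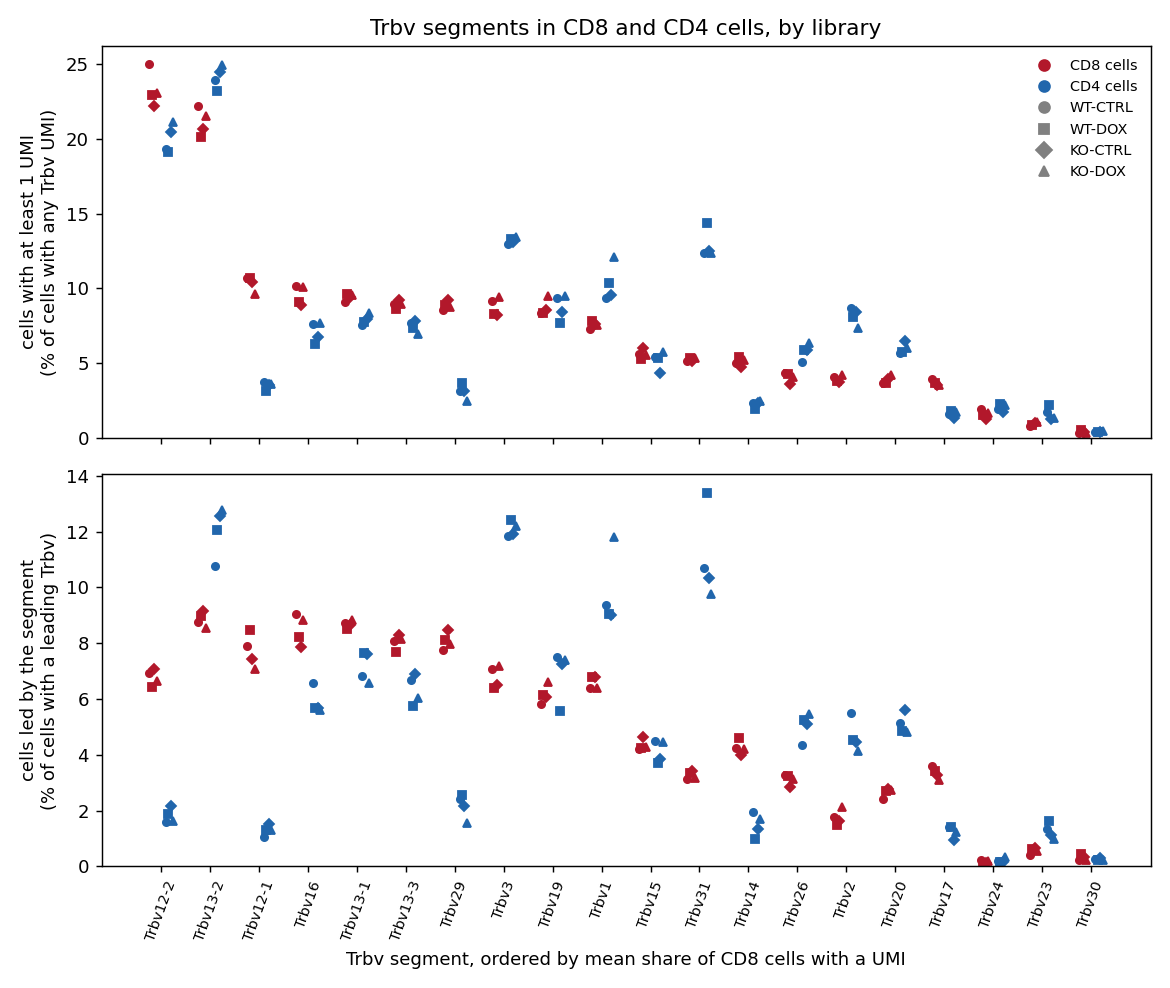
The 20 Trbv segments found in most CD8 cells, as the percent of cells with any Trbv UMI that have at least 1 UMI of the segment (top) and the percent of cells with a leading Trbv that are led by it (bottom). Each symbol is 1 library, red for CD8 and blue for CD4 cells. Trbv12-1 lies between 9.61 and 10.7% in CD8 cells in the top panel and Trbv31 between 12.4 and 14.4% in CD4 cells.

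Trbv13-2 and Trbv12-2 UMIs were also found in cells led by other segments, and the share differed between the sides of the locus. In cells led by a segment upstream of Trbv13-2 (Trbv1, Trbv2, Trbv3, Trbv12-1 and Trbv13-1) a Trbv13-2 UMI was present in 6.12, 5.61, 4.997 and 5.53% in the 4 libraries, as the mean over the 5 segments. In cells led by one of 11 downstream segments the mean was 20.7, 17.8, 18.997 and 20.4%. No library overlapped between the sides. The share was 37.6% in cells led by Trbv14, which lies 13.7 kb downstream, and 33.9% for Trbv13-3 at 8.75 kb. It was 14.4% for Trbv20 at 66.9 kb, and 5.26% for Trbv23 at 94.7 kb, 4.23% for Trbv26 at 106 kb and 4.75% for Trbv29 at 150.0 kb, near the 4.79 to 6.24% of the upstream segments, with 8.33% of 60 cells for Trbv30. Trbv13-1, only 5.39 kb upstream, gave 6.24%. Trbv12-2 UMIs showed the same split, 5.30 ± 0.68% upstream and 16.9 ± 1.13% downstream (SD over 4 libraries). Cells led by Trbv13-2 itself carried a Trbv12-2 UMI in 73.2% of 1954 cases, whereas cells led by Trbv12-2 carried a Trbv13-2 UMI in 12.9% of 1077. Trbv31 was counted on neither side, and of 1091 cells led by it 6.69% carried a Trbv13-2 UMI and 5.68% a Trbv12-2 UMI. Joining removes the DNA between a variable segment and its partner, except for Trbv31, which joins by inversion. Segments upstream of the joined one stay on the chromosome. The 5 and 11 segments of each side share libraries and are not replicates, and how these UMIs arose was not tested. Over neighbours in general the split was smaller. Of 16 Trbv segments that led at least 50 cells, 11 had their upstream neighbour in more of these cells than their downstream one, 4 of them in every library, with median shares of 1.77 and 1.25%. Of 47 Trav segments 31 did, 3 of them in every library, with medians of 1.81 and 0.826%. In one Trav case, chosen for its size, 108 of 253 cells led by Trav9-4 (42.7%) carried a UMI of Trav3-3, its upstream neighbour, and 4 carried one of Trav4-4-dv10, its downstream neighbour (1.58%).

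**Figure D3:**
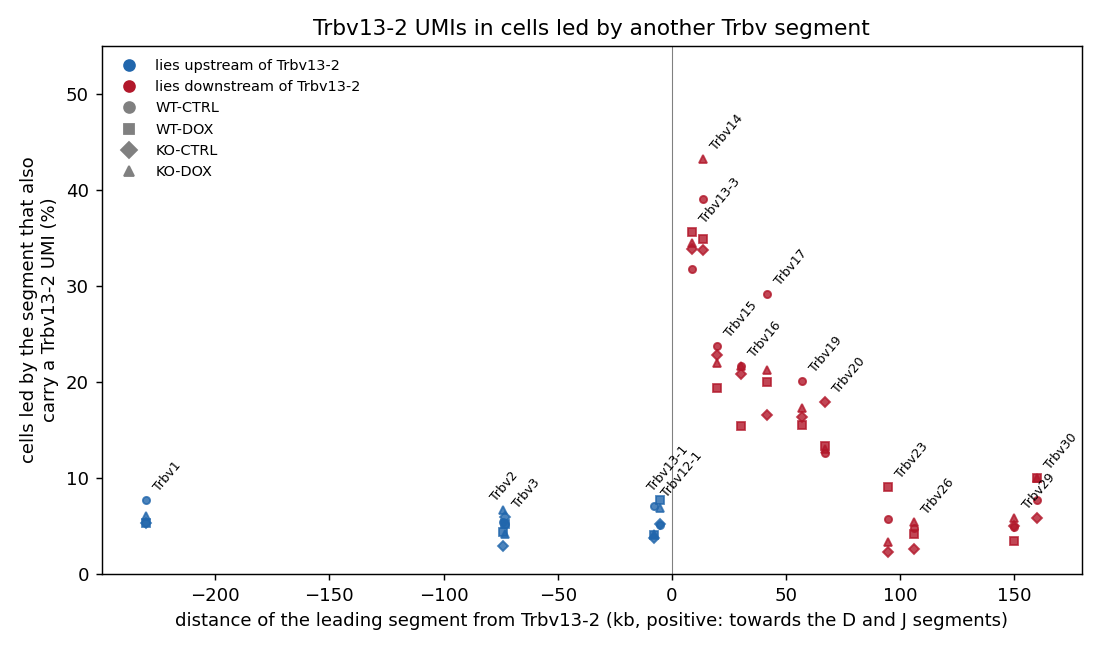
Percent of cells led by a given Trbv segment that also carry a Trbv13-2 UMI, against the distance of that segment from Trbv13-2 in kb. Each symbol is 1 library. Downstream segments within 66.9 kb lie above the upstream ones, and Trbv14 reaches 37.6% over all libraries.

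In the alpha locus the segments of the Trav16 family and Trav2 were higher in CD8 cells, and those of the Trav14, Trav9, Trav19 and Trav21 families were higher in CD4 cells. Of 68 Trav segments tested 10 were higher in CD8 cells and 31 lower, with a median log2 fold of -0.47. This excess of lower calls went with the lower Trav total of CD8 cells, 441 to 461 CPM against 657 to 742 in CD4 cells. Scaled to the total of Trav UMIs, 19 were higher and 15 lower, and the median was 0.00. When cells with the segment were counted, relative to cells with any Trav UMI, the split was 14 higher and 16 lower, against 46.4% of all genes called in that count. The segments with the largest folds, named next, kept their direction under these scalings.

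The 3 copies of Trav16 were all higher in CD8 than in CD4 cells. Trav16n was found in 6.90, 7.02, 8.33 and 6.74% of CD8 cells with any Trav UMI and in 2.61, 2.46, 3.02 and 2.80% of CD4 cells. Trav16 was found in 4.29 to 5.43% and 1.40 to 2.20%, and Trav16d-dv11 in 2.28 to 2.83% and 0.494 to 1.48%. For each copy the CD8 and CD4 shares did not overlap. Their log2 folds in UMIs were 1.25 ± 0.12, 1.29 ± 0.12 and 1.27 ± 0.29. Trav16d-dv11 overlapped in CPM, missed the threshold in DESeq2 (adjusted p = 0.0669) and stood at 0.79 without KO-CTRL, from 1.27. The copies are printed over the last 300 bases of the variable exon, since their values depend on telling them apart, with the bases that differ among them in capitals (GRCm38, plus strand).
Trav16 at chr14:53743406-53743705: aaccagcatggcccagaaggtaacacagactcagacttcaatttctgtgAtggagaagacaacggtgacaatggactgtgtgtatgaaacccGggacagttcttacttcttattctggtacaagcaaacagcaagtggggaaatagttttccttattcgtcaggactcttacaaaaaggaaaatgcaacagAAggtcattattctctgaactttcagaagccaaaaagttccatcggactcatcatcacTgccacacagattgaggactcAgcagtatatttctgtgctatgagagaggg
Trav16n at chr14:53351322-53351621: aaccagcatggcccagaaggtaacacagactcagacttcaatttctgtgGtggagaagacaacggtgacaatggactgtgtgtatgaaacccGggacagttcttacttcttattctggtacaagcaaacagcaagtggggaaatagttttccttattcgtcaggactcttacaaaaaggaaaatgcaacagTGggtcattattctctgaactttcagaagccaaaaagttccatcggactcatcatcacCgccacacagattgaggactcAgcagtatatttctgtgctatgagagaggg
Trav16d-dv11 at chr14:53047522-53047821: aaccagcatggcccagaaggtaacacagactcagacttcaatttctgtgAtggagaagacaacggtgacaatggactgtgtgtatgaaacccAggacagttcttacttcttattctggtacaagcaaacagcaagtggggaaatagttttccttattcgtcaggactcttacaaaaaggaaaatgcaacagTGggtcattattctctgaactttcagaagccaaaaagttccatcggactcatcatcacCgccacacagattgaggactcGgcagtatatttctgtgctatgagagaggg
The differing positions number 6 per copy, and pairs of copies are identical at 97.7 to 98.3% of aligned bases. The family sum, which does not need the copies to be separated, gave a log2 fold of 1.26 ± 0.09 (adjusted p = 1.40e-08).

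Trav2, the single member of its family, was rare but higher in CD8 cells: 1.22, 1.02, 1.04 and 1.20% of CD8 cells and 0.413, 0.410, 0.309 and 0.329% of CD4 cells carried it. Its log2 fold was 1.66 ± 0.22 (adjusted p = 1.55e-05). Trav12n-3 (1.12) and Trav8d-2 (1.001) followed, and the CPM of both overlapped between the classes. Trav12n-3 missed the threshold in DESeq2 (adjusted p = 0.0634), and without WT-CTRL the fold of Trav8d-2 was 1.59.

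Trav14-3 was found in 2.25, 2.55, 2.44 and 2.61% of CD8 cells and in 5.43, 5.57, 5.25 and 5.27% of CD4 cells, with 10.7 ± 2.81 and 32.0 ± 1.07 CPM (SD, n = 4). The classes did not overlap, and the log2 fold was -1.45 ± 0.12 (adjusted p = 8.61e-08). Trav14d-3-dv8 was found in 3.33 to 4.59% of CD8 and 7.21 to 9.28% of CD4 cells (-1.39 ± 0.13). The whole Trav14 family gave -1.18 ± 0.05. Not all its members differed alike: Trav14-1, the alpha segment of the OT-I receptor, was found in 4.62 to 5.32% of CD8 and 4.12 to 6.05% of CD4 cells, which overlap. In UMIs it was lower in CD8 cells (12.5 ± 1.57 against 19.8 ± 2.33 CPM, log2 fold -0.49, adjusted p = 0.0012), and scaled to the locus it stood at -0.01 and was not called. Trav19 (-1.52), Trav21-dv12 (-1.47), Trav9-1 (-1.43) and Trav4-4-dv10 (-1.42) were also lower in CD8 cells without overlap in CPM. In shares of cells Trav3-3 had the highest mean over the 4 libraries of the alpha segments in both classes, at 7.42 ± 0.36% of CD8 and 8.43 ± 0.38% of CD4 cells (SD, n = 4), although Trav16n was above it in CD8 cells of KO-CTRL (8.33 against 6.90%) and Trav14d-3-dv8 in CD4 cells of WT-CTRL (9.28 against 8.94%).

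As numbered families, 14 of 17 Trbv rows (6 higher, 8 lower) and 14 of 19 Trav rows (3 higher, 11 lower) passed, against 45.1% of 11848 rows tested (22.5% higher, 22.6% lower). Scaled to the locus totals the counts were 6 and 7 for Trbv and 6 and 6 for Trav. The Trav13 family reversed under that scaling, from -0.20 to 0.27. The share of Trav UMIs from n copies was 17.2 ± 0.68% in CD8 and 12.0 ± 0.92% in CD4 cells (SD, n = 4), the d copies gave 11.2 ± 0.55 and 10.2 ± 1.94%, and segments with neither letter 71.7 ± 0.93 and 77.8 ± 2.82%. The n copies did not overlap between the classes.

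**Figure D4:**
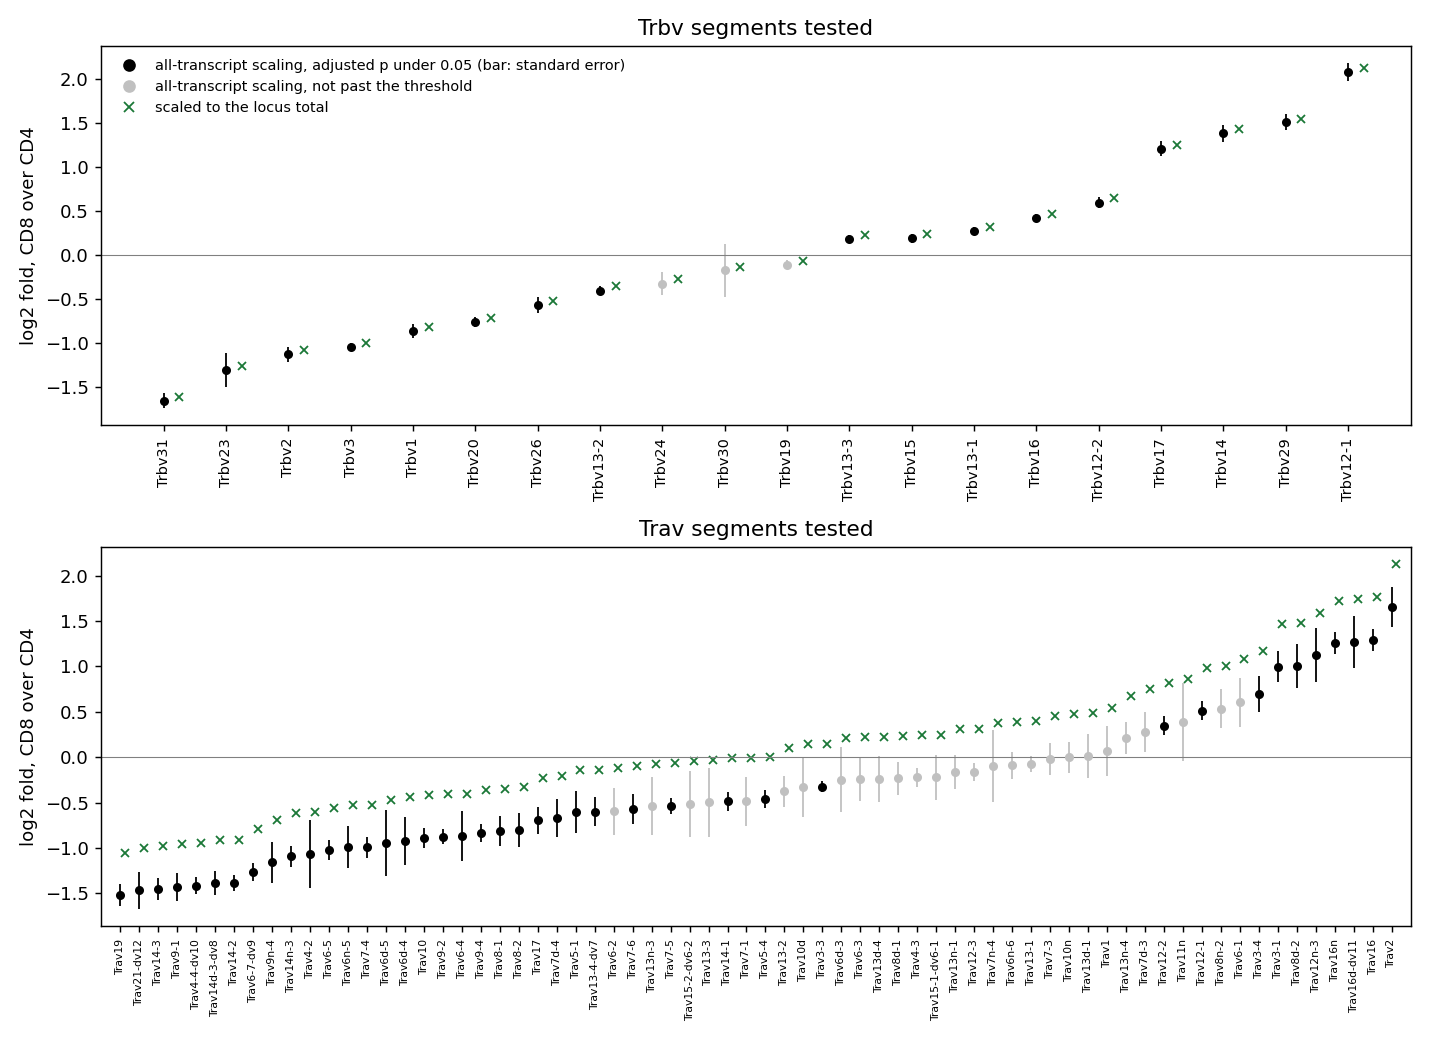
Log2 fold of CD8 over CD4 cells for the 20 Trbv (top) and 68 Trav (bottom) segments tested. Circles with bars are the fit scaled to all transcripts with its standard error, black where the adjusted p was under 0.05, and crosses the fit scaled to the total of the locus. Trbv12-1 lies highest at 2.08 among Trbv, and the crosses of Trav lie above the circles.

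Of the constant regions and signalling partners of the receptor, most were lower in CD8 cells. Among 19 such genes tested, Dntt included, 12 were lower and 4 higher at an adjusted p of 0.05, against 22.5% of all genes lower and 22.4% higher, and Lck, Cd3g and Dntt did not pass. Cd5, a negative regulator of receptor signalling, stood at 102 ± 7.12 CPM in CD8 and 260.5 ± 12.6 in CD4 cells (log2 fold -1.19). The alpha constant gene Trac fell by 0.42 on the log2 scale, and Trbc2 by 0.15, while Trbc1 rose by 0.18. Rag1 and Rag2, the recombinase, had no UMI in any gated class. Dntt, which adds bases at the joins, had 41 to 65 UMIs per library in CD8 cells, of which 0 or 1 came from Ccl5-positive cells.

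Of 10 segments shared with the delta locus, 5 were found in a larger share of cells with at least 2 UMIs of Trdc, the delta constant gene, than of CD4 cells, and 5 in a smaller share. Among 113 such cells with a Trav UMI, pooled over the libraries, Trav13-4-dv7 was present in 21.2% (exact 95% interval 14.1 to 29.9), against 1.54% of CD4 cells. Trav15-2-dv6-2 was present in 15.9% (9.72 to 24.0) against 0.399%, and Trav21-dv12 in 8.85% (4.33 to 15.7) against 2.54%. The Trdc cells with Trav13-4-dv7 numbered 3, 2, 9 and 10 in the 4 libraries. Of the 10 segments 6 were present in at most 2 of the 113 cells. Among these, Trav14d-3-dv8 was present in 1.77% against 8.01% of CD4 cells, Trav4-4-dv10 in 0.885% against 4.63%, and Trav6-7-dv9 in 1.77% against 4.28%. The invariant segment of natural killer T cells, Trav11, was rare with its copies, at 14, 25, 18 and 24 cells per library, and 0, 1, 0 and 0 of them had a UMI of Zbtb16, the transcription factor of those cells. Trav1, used by MAIT cells, was found in 58 to 103 cells, of which 0 to 4 had a Zbtb16 UMI. Over all cells Zbtb16 was found in 16 to 31 per library.

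In CPM, Foxp3-positive cells had lower totals of both loci than CD4 cells, whereas per cell they had more UMIs of both. Trbv UMIs averaged 8.18 to 9.19 per Foxp3-positive cell and 5.77 to 6.46 per CD4 cell. Trav UMIs averaged 3.58 to 4.95 and 2.50 to 2.68. Trbv UMIs summed to 1107 to 1256 CPM in Foxp3-positive and 1562 to 1792 in CD4 cells, and Trav UMIs to 484 to 609 and 657 to 742. Of 72 members tested 31 were called, 1 Trbv higher and 14 lower, and 3 Trav higher and 13 lower, against 52.0% of 10415 genes (26.6% higher, 25.4% lower). Scaled to the locus totals, 5 Trbv were higher and 6 lower, and 4 Trav higher and 5 lower, against 51.9% of genes. The median log2 fold of Trbv was -0.68 before and -0.13 after that scaling. By cells with the segment, relative to cells with the locus, 4 Trbv were higher and none lower, and 2 Trav were lower, against 50.1% of genes. Median depth was higher in Foxp3-positive cells, as given above. Their 5 effector CD8 markers summed to 345 to 561 CPM against 65.1 to 126 in CD4 cells, whose gate also excludes Cd8a and Cd8b1 UMIs. Without the Foxp3-positive cells that had such UMIs, 1 Trbv was higher and 16 lower, and 3 Trav higher and 10 lower. The part of depth or of effector markers in these counts was not tested.

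Trbv12-1 was called higher in Foxp3-positive cells in each of these 3 fits. It was found in 9.22, 6.57, 7.79 and 4.68% of Foxp3-positive cells with a Trbv UMI and in 3.72, 3.16, 3.53 and 3.58% of CD4 cells. The shares did not overlap, although the CPM did, at 43.5 ± 17.9 against 22.7 ± 5.64 (SD, n = 4). The log2 fold was 0.88 ± 0.20 (adjusted p = 0.00153, higher in 3 of 4 libraries) and 1.43 scaled to the locus, and DESeq2 gave an adjusted p of 0.121. Without WT-DOX the log2 fold was 0.52 (adjusted p = 0.0211). The other 3 called by cells were Trbv12-2 (22.8 to 30.3% of Foxp3-positive cells), Trbv13-2 (26.3 to 30.3%) and Trbv16 (7.79 to 12.1%), all of which were called lower in UMIs under the scaling to all transcripts. For these 3 the direction of the call differed between UMIs and cells.

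Among segments lower in Foxp3-positive cells, Trbv1 stood at 122, 96.2, 78.9 and 154 CPM against 190, 215, 199.9 and 306 in CD4 cells. The classes did not overlap, and the log2 fold was -1.07 ± 0.09 (adjusted p = 1.45e-08) and -0.51 scaled to the locus. By cells it missed the threshold (adjusted p = 0.347). Trbv17 had a log2 fold of -1.63 and was listed at 0 in the 282 Foxp3-positive cells of KO-CTRL, and Trbv26 had -1.36, Trbv24 -1.31, Trbv23 -1.28 and Trbv14 -1.09. None of these 5 passed when cells were counted, and for Trbv23 the direction reversed (0.068). Trbv14 lost the call without WT-CTRL (adjusted p = 0.0767) and stood at -1.90 without KO-DOX. Trav14-1 was lower in UMIs, -0.98 ± 0.21, and by cells (adjusted p = 0.0412), at 1.78 to 5.64% of Foxp3-positive and 4.12 to 6.05% of CD4 cells. Trav6d-5 (-1.86), Trav6n-5 (-1.43), Trav14-2 (-1.32), Trav5-1 (-1.31) and Trav12-3 (-1.04) were lower too, and Trav5-1 lost the call without WT-CTRL (adjusted p = 0.121) or KO-DOX (0.126) and stood at -2.10 without WT-DOX. The higher Trav calls were Trav7d-3 (0.89), Trav1 (0.86) and Trav4-4-dv10 (0.49). All 3 lost the call without WT-CTRL, where their adjusted p was 0.240, 0.604 and 0.0603, and in DESeq2. The folds were then 0.59 for Trav7d-3 and 0.27 for Trav1. The calls were also lost for Trav7d-3 without WT-DOX (0.0716), for Trav1 without KO-DOX (0.0741) and for Trav4-4-dv10 without KO-CTRL (0.101).

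Against Ccl5-negative CD8 cells, Ccl5-positive ones gave fewer Trav calls than the share over all genes, whereas the Trbv share was near it. Of 83 members tested 19 were called, against 38.4% of 11185 genes (22.1% higher, 16.4% lower). Of 20 Trbv segments no one was higher and 8 were lower (40%). Of 63 Trav segments, which have fewer UMIs, 3 were higher and 8 lower (17.5% called). The Trbv total was 1138 to 1249 CPM in Ccl5-positive and 1419 to 1493 in Ccl5-negative cells. Per cell the order was the other way, with 7.02 to 7.43 Trbv UMIs in Ccl5-positive and 5.73 to 6.15 in Ccl5-negative cells. Scaled to the locus totals, 3 Trbv were higher and 4 lower, and 4 Trav higher and 3 lower. By cells relative to cells with the locus, only Trbv12-2 and Trav14-3 were called, both higher, against 33.6% of genes. Depth differed between these classes as well, at 4413 to 4688 against 3459 to 3540 median UMIs.

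Trbv12-2 was found in 30.3, 26.9, 28.4 and 26.5% of Ccl5-positive cells and in 24.5, 22.5, 21.5 and 22.7% of Ccl5-negative cells. The shares did not overlap. In UMIs it stood at 159 ± 35.7 and 147 ± 7.53 CPM and missed the threshold (log2 fold 0.17, adjusted p = 0.166), and scaled to the locus it passed (0.37, adjusted p = 0.00346). Trbv12-1, at 10.2 to 13.7% and 9.56 to 10.7% of cells, was not called in UMIs (log2 fold 0.11 ± 0.09). The largest fall of a beta segment with many UMIs was that of Trbv1, from 118 ± 6.51 to 58.8 ± 20.98 CPM (log2 fold -0.96 ± 0.12, adjusted p = 4.50e-06). Trbv13-3 fell from 98.1 ± 2.31 to 60.1 ± 6.52 CPM, by 0.63 on the log2 scale. Counted in cells neither passed (adjusted p = 0.122 and 0.258). Trbv30 (-1.73), Trbv3 (-0.64), Trbv19 (-0.36) and Trbv16 (-0.22) were the other named beta segments, and Trbv19 and Trbv16 missed the threshold when scaled to the locus. Without KO-CTRL Trbv30 stood at -1.09 and missed the threshold (adjusted p = 0.05).

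Trav4-3, Trav14-3 and Trav16n were the alpha segments called higher in Ccl5-positive cells. Trav4-3 stood at 28.3, 20.8, 12.0 and 5.55 CPM in Ccl5-positive cells and at 7.09, 9.15, 7.56 and 10.04 in Ccl5-negative cells. It was higher in 3 of 4 libraries, with a log2 fold of 1.07 ± 0.26, and without WT-CTRL the fold was 0.62 and the call was lost (adjusted p = 0.0944). Trav14-3 stood at 6.32, 13.6, 16.2 and 23.6 CPM against 7.37, 10.7, 9.33 and 12.8, higher in 3 of 4 libraries (0.61 ± 0.17), and lost the call without KO-CTRL (adjusted p = 0.0660) or KO-DOX (0.0710). Trav16n was higher in 4 of 4 (0.61 ± 0.12), with 59.1 CPM in KO-CTRL and 27.7 to 35.6 in the others, and stood at 0.38 without KO-CTRL. Lower calls were led by Trav13-2 (-1.45), Trav8-1 (-0.89), Trav21-dv12 (-0.84), Trav4-4-dv10 (-0.77), Trav8n-2 (-0.76) and Trav16 (-0.75). Without WT-CTRL Trav21-dv12, Trav4-4-dv10 and Trav8n-2 missed the threshold (adjusted p = 0.164, 0.143 and 0.130), as did Trav21-dv12 and Trav8n-2 without KO-CTRL (0.165 and 0.129) and Trav21-dv12 and Trav4-4-dv10 without KO-DOX (0.125 and 0.143). Without WT-DOX Trav21-dv12 stood at -1.30 and Trav4-4-dv10 at -1.21.

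**Figure D5:**
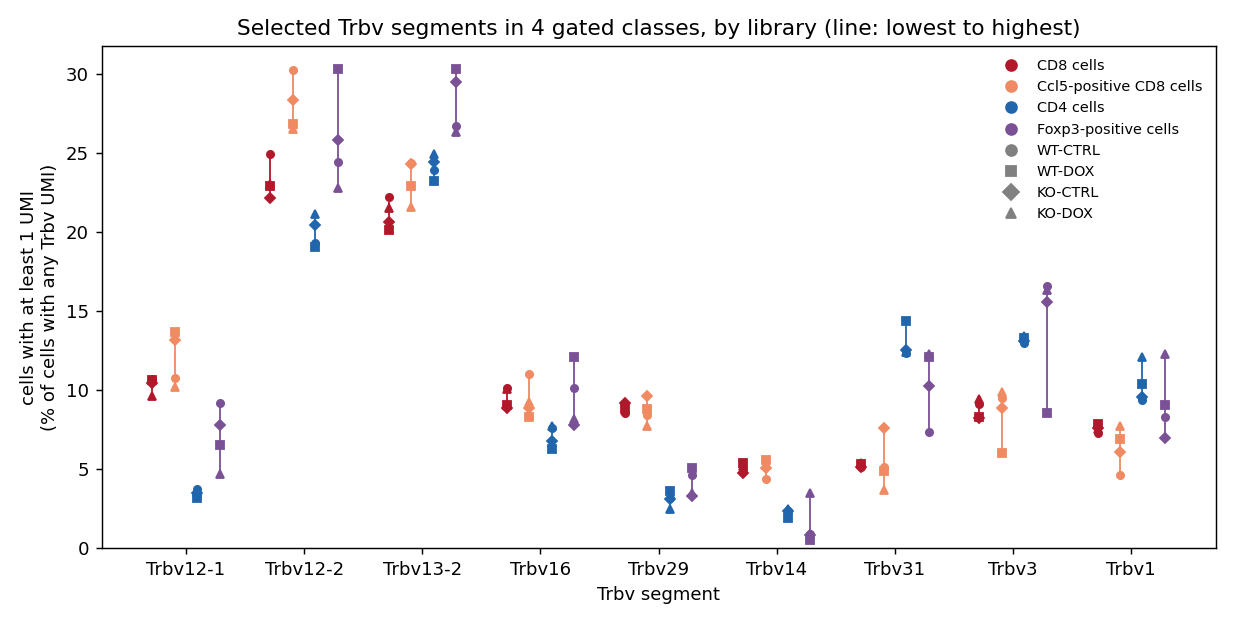
Percent of cells with any Trbv UMI that carry each of 9 Trbv segments, in CD8, Ccl5-positive CD8, CD4 and Foxp3-positive cells. Each symbol is 1 library and lines run from the lowest to the highest. Trbv12-1 lies at 4.68 to 9.22% in Foxp3-positive cells, between the CD4 and the CD8 values in these libraries.

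Pairs of segments were read from cells with a leading Trav and a leading Trbv, which were 121 to 152 Ccl5-positive and 1117 to 1345 Ccl5-negative CD8 cells per library. The share of all cell pairs with the same 2 segments, a measure of how far the cells are concentrated in few combinations, was 0.155, 0.288, 0.401 and 0.124% in Ccl5-positive cells. In Ccl5-negative cells it was 0.181, 0.181, 0.188 and 0.175%. It was higher in Ccl5-positive cells in 2 of 4 libraries, WT-DOX and KO-CTRL, and lower in the other 2. The mean difference was 0.0609 percentage points, and an exact two-sided sign-flip permutation test over the 4 libraries gave p = 0.5, where the smallest possible is 0.125. Without KO-CTRL the mean difference was 0.0102. The most frequent pairs were Trav16n with Trbv31 in 6 of 140 Ccl5-positive cells of KO-CTRL and Trav4-3 with Trbv12-2 in 5 of 152 of WT-DOX. The junction sequences that would identify a clone were not analysed here. Trav14-1 and Trbv12-1, the segments of the OT-I receptor, led together in 2, 1, 2 and 4 CD8 cells. These were out of 1409, 1497, 1374 and 1238 CD8 cells with a leading Trav and a leading Trbv. Of 704, 554, 790 and 607 such CD4 cells none had this pair. Trbv12-1 by itself led a larger share of CD8 than of CD4 cells, as given above, and the pair was not tested between the classes.

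Between libraries few beta segments passed the size used in CD8 cells, and more did in the smaller classes. With 1 library per group a segment was called only by size, a log2 fold of CPM plus 1 of at least 0.32, among genes with at least 10 CPM and 50 UMIs in either library. In CD8 cells 5.19% of genes passed for WT-DOX against WT-CTRL, 2.17% for KO-DOX against KO-CTRL, 3.66% for KO-CTRL against WT-CTRL and 6.60% for KO-DOX against WT-DOX. Of 17 Trbv segments 1, 2, 2 and 1 passed. Of 17 to 19 Trav segments 4, 6, 5 and 4 passed, at lower UMI counts. Trbv2 in CD8 cells stood at 18.3 CPM in WT-CTRL against 14.2 in WT-DOX, and at 14.7 in KO-CTRL against 21.5 in KO-DOX. In CPM it was thus lower with doxorubicin in the WT pair (-0.34) and higher in the KO pair (0.52). As shares of cells with any Trbv UMI, its exact 95% intervals overlapped in both pairs. They were 3.50 to 4.70% in WT-CTRL and 3.25 to 4.38% in WT-DOX, and 3.19 to 4.36% in KO-CTRL and 3.56 to 4.88% in KO-DOX. Trbv17 was lower in KO-CTRL than in WT-CTRL (59.6 against 75.7 CPM, exact Poisson 95% intervals 56.3 to 63.0 and 72.0 to 79.5), as was Trbv26 (28.7 against 38.5). These intervals do not overlap, but they hold counting error only and treat UMIs of 1 cell as independent. The 1591 Trbv17 UMIs of WT-CTRL came from 171 cells. As shares of cells with any Trbv UMI, the exact 95% intervals of KO-CTRL and WT-CTRL did overlap. They were 3.02 to 4.16% and 3.37 to 4.55% for Trbv17, and 3.06 to 4.21% and 3.78 to 5.02% for Trbv26.

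Of the alpha segments in CD8 cells, Trav19 stood at 6.09, 10.3, 10.8 and 7.83 CPM, the lowest in WT-CTRL. Trav14-3 was also lowest in WT-CTRL, at 7.23 CPM, and highest in KO-DOX, at 14.1. Other segments past that size were Trav5-4, higher in WT-DOX than WT-CTRL (0.43), and Trav9-4, lower in KO-DOX than WT-DOX (-0.64). Trav16n and Trav16d-dv11 were lower in KO-DOX than KO-CTRL (-0.41 and -0.60), and Trav4-4-dv10 was higher (0.43). Trav14-1 was higher (0.39) and Trav14d-3-dv8 lower (-0.35) in KO-DOX than WT-DOX, and Trav8d-2 was higher in KO-CTRL than WT-CTRL (0.33). For Trav14d-3-dv8 and Trav8d-2 the exact Poisson intervals of the 2 libraries overlapped (6.54 to 9.18 against 8.85 to 11.6 CPM, and 8.85 to 11.7 against 6.74 to 9.20).

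In CD4 cells, with fewer UMIs, 8.78, 7.49, 6.52 and 12.9% of genes passed in the same order of comparisons. Of 18 Trbv segments 5, 6, 4 and 8 passed, and of 26 to 28 Trav segments 14, 13, 11 and 15. Trbv17 was lower in KO-CTRL than in WT-CTRL here too (23.3 against 38.2 CPM). Trbv17 was higher in KO-DOX than in KO-CTRL (40.2 CPM, log2 fold 0.76), and Trbv12-1 was higher in KO-DOX than in WT-DOX (30.1 against 17.5 CPM, 0.75). Trbv23 was lower in KO-CTRL than WT-CTRL (-0.68) and Trbv14 lower in WT-DOX than WT-CTRL (-0.58). The largest folds were in alpha segments of few UMIs: Trav8n-2 was higher in KO-CTRL than WT-CTRL (12.6 against 4.10 CPM, 1.42), and Trav13-4-dv7 was higher in WT-DOX than WT-CTRL (1.09) and lower in KO-DOX than WT-DOX (-1.19). Trav13-2 stood at 11.5 CPM in WT-CTRL, 5.23 in WT-DOX and 12.4 in KO-DOX. Trav7-4 stood at 15.0 CPM in WT-CTRL and 30.7 in WT-DOX. These comparisons share libraries, and each rests on 1 library per group.

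In the Foxp3-positive and Ccl5-positive classes, which hold fewer cells, larger shares of all genes passed this size than in CD8 or CD4 cells. In Foxp3-positive cells 21.3, 19.4, 18.5 and 19.3% of genes passed in the same order of comparisons, and 12 of 15, 10 of 14, 6 of 14 and 13 of 15 Trbv segments. In Ccl5-positive CD8 cells 18.8, 16.1, 20.2 and 15.2% of genes passed, and 11 of 16, 11 of 17, 7 of 17 and 11 of 17 Trbv segments. Trbv31 stood at 22.7, 16.5, 64.4 and 24.0 CPM in Ccl5-positive cells, with log2 folds of 1.47 for KO-CTRL against WT-CTRL and -1.39 for KO-DOX against KO-CTRL. It was highest in KO-CTRL, whose Ccl5-positive cells also had the highest Trav16n level and the 6 cells that paired both. Trbv31 was picked here after its values were seen.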

How the data were processed

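Genes were counted per cell as UMIs from a 5′ single-cell kit, and the tables deposited by the authors hold raw counts per gene and cell barcode. The genome build was mm10 per the submitters' processing notes. For the aligner, annotation, cell calling and reads shared by several segments: not given in the sources used here. Total UMIs per library were 37754389 to 47081849. Barcodes under 300 genes or over 10% mitochondrial UMIs were dropped, which left 48578 of 48597. No doublet caller was run. The CD8 and CD4 gates exclude barcodes with UMIs of both CD4 and CD8, whereas the Foxp3 gate does not. An alternative left out Foxp3-positive cells with CD8 UMIs, and another left out cells with at least 2 UMIs of each of several Trbv segments.

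Counts were summed per library and class, filtered with filterByExpr, scaled by TMM and tested over all genes with edgeR 4.0.16 (R 4.3.3, quasi-likelihood, Benjamini-Hochberg, library as block because the same library gives both classes), checked on simulated data. DESeq2 1.42.0 was an alternative. Printed CPM are scaled to the UMIs of the class sum. Python 3.11.15 was used for shares and figures. Segment positions, types and sequences were taken from GENCODE M21 on GRCm38.

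The members and gene lists were chosen with earlier results of these data known. Per class comparison, up to 6 Trav and 6 Trbv segments in each direction with the largest log2 fold among those past the threshold were named, with the 8 of each locus found in most CD8 and CD4 cells, Trav11, Trav1, Trav14-1 and Trbv12-1, and up to 3 per direction between libraries. Other segments named were chosen after their values were seen.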

Additional observations from a re-analysis of the deposited data

Results flagged for a closer look

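In 14 cases a segment moved one way with doxorubicin in the WT pair of libraries and the other way in the KO pair, by a log2 fold of at least 0.32 in both, over the members tested in the CD8, CD4, Foxp3-positive and Ccl5-positive CD8 classes. Of all genes, 5.19 and 2.17% passed this size in the WT and KO pair in CD8 cells, and 8.78 and 7.49% in CD4 cells. In Foxp3-positive cells 21.3 and 19.4% passed, and in Ccl5-positive CD8 cells 18.8 and 16.1%. How many of all genes moved opposite ways was not counted, so the 14 cases have no background to be set against. In CD8 cells Trbv2 had -0.34 in the WT pair and 0.52 in the KO pair, and Trav19 had 0.67 and -0.42. In CD4 cells Trbv17 had -0.37 and 0.76, Trav9-1 had 0.33 and -0.50, Trav13-2 had -1.01 and 0.46, and Trav14d-3-dv8 had -0.38 and 0.58. By share of cells with any Trbv UMI, Trbv17 did not fall in the WT pair, at 1.61% in WT-CTRL and 1.79% in WT-DOX.

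In Foxp3-positive cells, the smallest class, Trbv1 had -0.34 and 0.96, and Trbv2 had -0.40 and 0.56. The reverse order was seen for Trbv12-1 (0.90 and -0.63), Trbv13-3 (0.62 and -1.11), Trbv19 (0.54 and -0.33) and Trbv20 (0.44 and -1.37). In Ccl5-positive CD8 cells Trbv17 had -0.90 and 0.61, and Trbv26 had 0.98 and -0.60. Each value compares 1 library with 1 library, so the difference between the pairs was not tested.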

How the results depend on the processing

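The count of segments called between CD8 and CD4 cells was 58, and stayed between 45 and 63 under the alternatives run and between 54 and 58 when 1 library was left out. For Foxp3-positive against CD4 cells the count was 31, with 17 in DESeq2, 46 without a filter on low counts, 20 scaled to the locus totals, 7 when cells with the segment were counted and 6 when these were also scaled to the locus. It was 27 to 33 when 1 library was left out. For Ccl5-positive against Ccl5-negative CD8 cells the count was 19, with 11 in DESeq2, 36 without a filter on low counts, 11 when Ccl5-positive meant at least 3 UMIs, 4 by cells and 2 by cells scaled to the locus. It was 16 to 24 when 1 library was left out. The count of families was 28, and 26 to 29 when 1 library was left out. By locus these were 14 Trav and 14 Trbv families, against 10 and 12 when cells were counted. They were 12 and 12 when counted cells were also scaled to the locus, and 13 and 12 in the stricter gates. The scaling of counted cells to the locus was chosen after seeing the data. The number of genes tested also changed, for Foxp3-positive cells from 10415 to 19020 in DESeq2 or without the filter on low counts. In that contrast 51.9% of all genes were called when scaled to the locus totals and 50.1% by cells scaled, against 52.0%. For the other alternatives the share over all genes is not given here, so those counts have no background. The cause of these changes was not tested. Without the replicate block, which pairs the classes of a library, the counts were 50, 24, 14 and 25.

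In Foxp3-positive cells Trbv12-2, Trbv13-2 and Trbv16 were called lower in UMIs (-0.35, -0.44 and -0.31) and higher by cells (0.37, 0.23 and 0.43). Directions also reversed for Trbv23 in Foxp3-positive cells (0.064 by cells, 0.068 by cells scaled), for Trav14-3 at 3 Ccl5 UMIs (-0.0065), for Trav8n-2 (0.038) and Trbv19 (0.033, and 0.020 scaled) in Ccl5-positive cells by cells, and for the Trav13 family between CD8 and CD4 cells (0.27 scaled to the locus, 0.046 by cells, 0.17 by cells scaled). The share of CD8 cells with Trbv12-1 was 10.4%, 9.001% after thinning and 7.73% as the leading segment, and that of CD4 cells led by Trbv31 was 11.1%, from 12.9% with any UMI. Between libraries 101 calls were made in CD8 and CD4 cells together, 90 scaled to the locus and 13 with at least 50 CPM and 200 UMIs. No Trav segment met this last filter, so the 13 calls are of Trbv only and Trav calls could not recur. The share of all genes past the size was not counted under that filter, so these 13 calls have no background. The difference in shared pairs was 0.0102 to 0.0980 when 1 library was left out.

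The number of libraries and the few UMIs of most Trav segments limit these comparisons, as do reads shared between Trav copies.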
